A study of Mus musculus with 4 samples.

Results

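The 44 genes described here encode proteins of DNA repair and of the signalling that follows DNA damage. They were taken by name from tables of 21506 mouse genes, and for a gene with several RefSeq transcripts the row of greatest exon length was used. All 44 had a row, and all 44 were among the 10310 genes that reached 1 RPKM (reads per kilobase of exon and M reads) in at least 2 libraries and were tested. They fall into 7 pathways, with 8 genes of homologous recombination, 6 of the Fanconi anaemia pathway, 3 of mismatch repair, 8 of nucleotide excision repair, 7 of base excision and single-strand break repair, 5 of end joining and 7 of damage signalling.

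The RNA came from 32Dclone3, a mouse myeloid cell line that all groups share and that was grown with interleukin-3 from WEHI-conditioned medium. Control cells carried the XZ control virus and the others carried XZ-miR-125b, each as a stable infection made from separate virus supernatants, and 2 libraries of poly(A)-enriched RNA represent each condition. The labels name no promoter for the transgene and do not give its level. Nothing says that the libraries of a group came from separate infections, so p-values measure the spread between these libraries, which may be technical.

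Homologous recombination and end joining both mend broken chromosomes. The first copies an intact sister strand after replication, and the second rejoins the ends directly. The Fanconi anaemia proteins unhook crosslinks between strands, mismatch repair corrects errors of the polymerase, and the excision pathways replace damaged bases or short stretches that hold bulky lesions. Atm and Atr are the kinases that sense broken or stalled DNA, and Chek1 and Chek2 carry their signal to the cell cycle. Many of these genes are transcribed most strongly in dividing cells, and inherited loss of the Fanconi genes causes failure of blood formation.

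To see which of these messages could pair with the overexpressed miRNA, the mature sequence (RefSeq, GRCm38.p6) and the matches in each gene's longest 3′ UTR (GENCODE M21) are shown. Capitals mark the seed of the miRNA, bases 2 to 8, and the matching bases of the messages, written 5′ to 3′ as DNA.
miR-125b-5p: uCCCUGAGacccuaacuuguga
Bard1, 8mer: cagggctgCTCAGGGAggtaagga
Fancc, 8mer: cccagccaCTCAGGGAgcaggcca
Palb2, 7mer-m8: aattactaCTCAGGGcccggctt
Ercc2, 7mer-m8: tgctgatgCTCAGGGtccgaggg
Ddb2, 7mer-m8: cagctacgCTCAGGGtcccagct

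The 7mer-m8 site CTCAGGG pairs with the whole seed, and an 8mer has an A after it. Besides those printed, Fancm and Ogg1 hold 1 7mer-m8 each, and Brca1 holds the weaker 7mer-A1, TCAGGGA. An 8mer or 7mer-m8 was thus present in 7 of the 44 genes (15.9%), against 17.1% of the 9962 tested genes with an annotated 3′ UTR. The longest 3′ UTR of a gene can belong to a transcript other than the row that was counted. For Mre11a it was 3460 bases, against 3004 bases of exon in the row, and for Xrcc4 2440 against 1540. A site may therefore be absent from the message that was measured. A match of these letters is not evidence of binding.

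The tables held between 10.4 and 12.6 M reads per library, summed over all rows. A hairpin row, Mir125b-1, held 0 reads in both control libraries, where a count of 0 allows up to 3, and 4 reads in each miR-125b library. Of the defining markers of other cells, none of 8 lymphoid genes reached 1 RPKM in any library, and their summed level was between 0.239 and 0.689 RPKM. Ms4a1 was at 0 in all 4. The summed level was between 7.91 and 10.99 RPKM for 6 erythroid genes and between 4.93 and 9.94 RPKM for 8 stromal genes. Among them Hbb-b1, Col1a2, Col3a1 and Dcn were at 0, but others were not. Klf1 was at 2.83 to 5.44 RPKM, Epor at 2.78 to 6.32 RPKM and Pdgfrb at 2.46 to 8.53 RPKM. Thy1 was at 0.257 and 0.722 RPKM in control cells against 1.19 and 2.31 RPKM with miR-125b. Of 11 genes of myeloid identity, 10 were at 1 RPKM or more in every library, from the growth factor receptor gene Csf3r at 1.77 to 7.45 RPKM to the granule protease gene Prtn3 at 319.2 to 758.5 RPKM. The other, Kit, was at 0.0186 RPKM in control replicate 2 and 0 in the others. Mpo, the granule peroxidase gene, was at 39.1 and 54.2 RPKM in control cells against 273.0 and 105.3 RPKM with miR-125b (log2 fold change 1.86 ± 0.44, SE, unadjusted p = 0.00425, adjusted p = 0.410 in limma). Control replicate 2 stood apart from the others. Across tested genes its Pearson's r with control replicate 1 was 0.957, and its r with miR-125b replicates 1 and 2 was 0.951 and 0.937, whereas the miR-125b pair reached 0.979 (on log2(RPKM + 1)). Control replicate 1 had an r of 0.977 with miR-125b replicate 1 and 0.962 with miR-125b replicate 2. For this reason the results that move most with control replicate 2 are also given without it. Such a value rests on 1 control library and does not tell which control is typical.

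Mean levels of the 44 genes over the 4 libraries ran from 1.34 to 158.4 RPKM. The highest was Ddb1, the adaptor of a ubiquitin ligase that recognises ultraviolet damage, at 172.8 and 148.6 RPKM in control cells (replicates 1 and 2, in this order throughout) against 172.8 and 139.5 RPKM with miR-125b. Parp1, which marks strand breaks with poly(ADP-ribose), followed with a mean of 64.2 RPKM over the 4 libraries. Apex1, the endonuclease that cuts at abasic sites, was at 67.1 and 54.8 RPKM in control cells against 63.9 and 58.9 RPKM with miR-125b. Its mean was 61.2 RPKM, but 73.9% of its exon length overlaps exons of Tmem55b on the opposite strand. No label mentions strand-aware counting. Reads of such pairs cannot be told apart.

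At the lower end were Fancc, a subunit of the Fanconi core complex, with a mean of 1.34 RPKM, the adenine glycosylase gene Mutyh with 2.12 RPKM and the end-joining ligase gene Lig4 with 2.15 RPKM. The fewest reads behind any value were 33, for Mutyh in control replicate 2, and 41 of the 44 genes had at least 50 reads in every library. Smaller differences are therefore hard to detect in the lowest genes.

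Partners of 1 complex were not always at 1 level on the RPKM scale, which is per length. In the MRN complex, which binds broken ends, Rad50 stood between 2.03 and 2.13 times as high as Nbn in the 4 libraries, and Mre11a between 1.78 and 1.97 times. These ratios hardly differed between libraries. The Ku heterodimer, the ring that holds ends for joining, showed a wide gap, since Xrcc6 (Ku70) was between 5.04 and 15.7 times as high as Xrcc5 (Ku80). Msh6 and Msh3 are alternative partners of the same mismatch sensor, and Msh6 was between 6.62 and 10.95 times as high as Msh3. Fancd2 stood between 0.682 and 0.886 times as high as its partner Fanci.

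**Figure D1:**
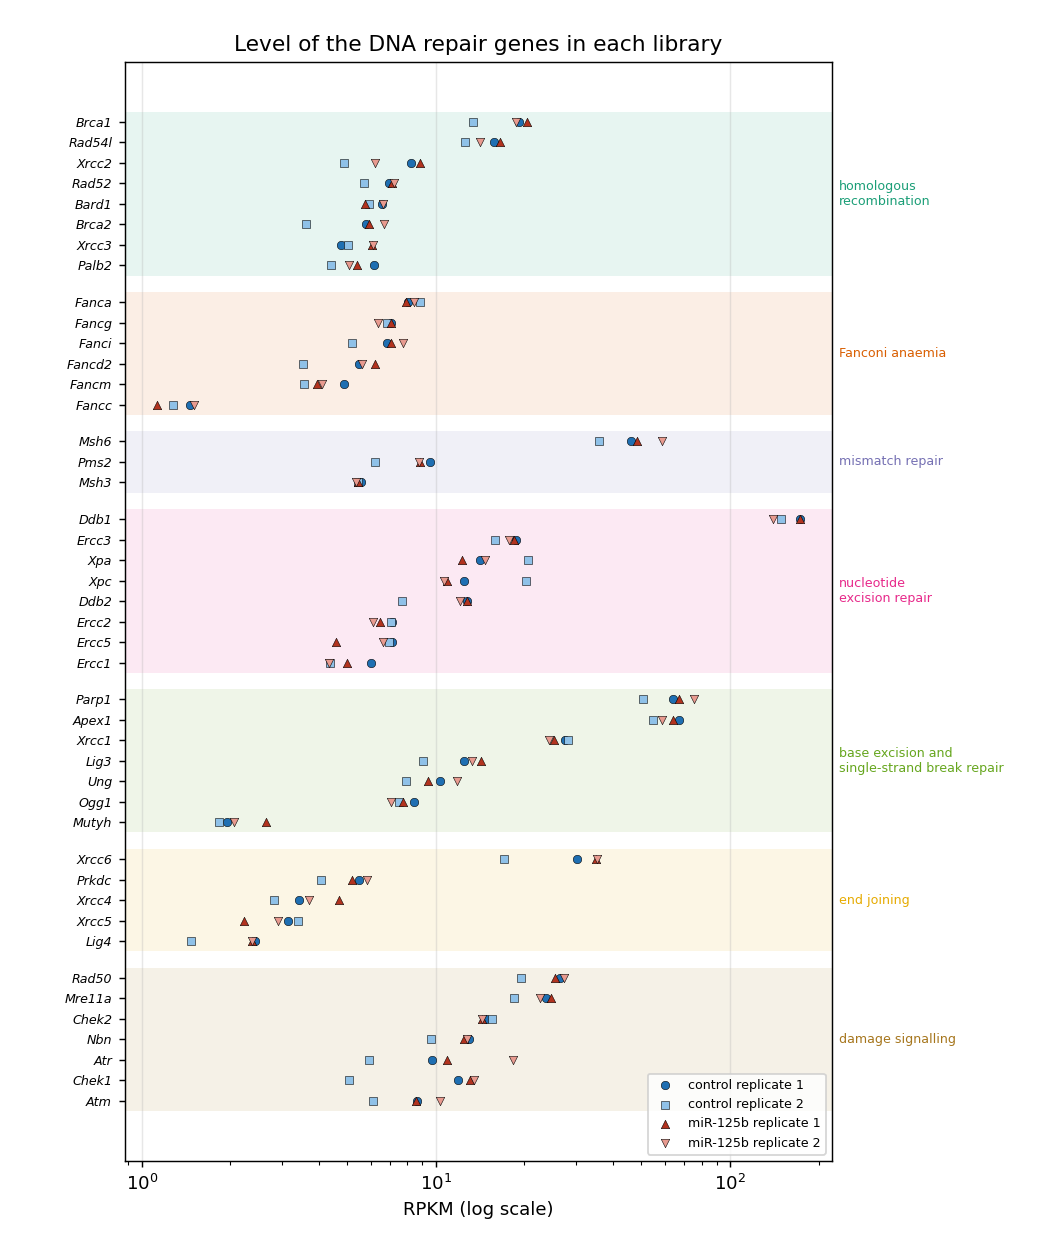
Level of each of the 44 genes in RPKM (log axis), grouped by pathway and ordered by mean within it, with 1 symbol per library. Control replicate 2 (pale squares) is the lowest of the 4 libraries for 28 genes.

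The question put to these genes was whether repair pathways differed between control cells and cells with miR-125b. None of the 44 passed limma's test after Benjamini-Hochberg adjustment over all tested genes, where the smallest adjusted p among them was 0.505. The count over all genes was also 0 (0.0%), and limma-voom on recovered reads called 0 as well. In RNA from whole cultures, fewer cells that express a gene and less RNA per cell cannot be told apart. At an unadjusted p under 0.05 there was 1 of the 44 genes, Atr (2.27%, and again 1 by limma-voom), against 967 genes or 9.38% of all tested (430 higher, 4.17%, and 537 lower, 5.21%), with 997 genes by limma-voom. The difference between these shares was not tested, and it turned without control replicate 1, where 16 of the 44 (36.4%) had an unadjusted p under 0.05 against 3018 of 10226 genes (29.5%).

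The median log2 fold change, on the log2(RPKM + 1) scale that understates differences of low genes, was 0.16 over the 44 genes and 0.024 over all tested genes. Of the 44, 28 had a positive value (63.6%) and 16 a negative one, against 52.8% positive overall. The groups did not overlap in 20 of the 44 (45.5%), 13 higher and 7 lower with miR-125b. Of all tested genes 42.8% did not overlap, 22.3% higher and 20.4% lower. The total is close to the background, and the split by direction was not tested. The standard errors ran from 0.17 to 0.34, so a 95% confidence interval from limma reached between 0.41 and 0.82 to either side, which in the narrowest case is 1.33-fold and in the widest 1.76-fold. Of these intervals 43 included 0, so that moderate differences in either direction cannot be told from none at this number of libraries.

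Among genes of damage signalling, Atr had the largest difference of all 44. This kinase gene (chromosome 9, 95758016 to 95852063 in mm9) was at 9.71 and 5.91 RPKM in control cells against 10.9 and 18.2 RPKM with miR-125b. Both miR-125b libraries were above both controls, but miR-125b replicate 1 was near control replicate 1, and miR-125b replicate 2 was well above the rest. The log2 fold change was 0.82 ± 0.31 (SE), with an unadjusted p of 0.0342 and an adjusted p of 0.505 in limma. With single libraries left out it ran from 0.47 to 1.16.

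Chek1, the kinase that Atr activates, was at 11.9 and 5.08 RPKM in control cells against 13.1 and 13.4 RPKM with miR-125b. Here 1 library, control replicate 2, was far below the other 3. The log2 fold change of 0.69 ± 0.34 (SE, adjusted p = 0.571 in limma) was 0.15 without that library and 1.23 without control replicate 1. Chek2, the kinase that Atm activates, was level in all 4 libraries, at 14.8 and 15.6 RPKM in control cells against 14.4 and 14.4 RPKM with miR-125b. Atm itself was at 8.59 and 6.11 RPKM in control cells against 8.56 and 10.3 RPKM with miR-125b, with groups that overlapped.

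The MRN genes had the same shape. Rad50 was at 26.5 and 19.5 RPKM in control cells against 25.4 and 27.2 RPKM with miR-125b, Mre11a at 23.6 and 18.5 against 24.6 and 22.7 RPKM, and Nbn at 12.9 and 9.63 against 12.5 and 12.8 RPKM. In each of the 3 genes control replicate 2 was lowest and the other 3 libraries were close together. Over the 7 genes of damage signalling the median log2 fold change was 0.20. It was 0.0020 without control replicate 2 and 0.41 without control replicate 1. In 6 of the 7, control replicate 2 held the lowest value.

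End joining followed this pattern in 4 of its 5 genes. Xrcc6 (chromosome 15, 81846799 to 81870514) was at 30.2 and 17.1 RPKM in control cells against 35.0 and 35.4 RPKM with miR-125b, so that the groups did not overlap and control replicate 2 was the low one. Its log2 fold change was 0.61 ± 0.28 (SE, unadjusted p = 0.0675, adjusted p = 0.548 in limma). It was 0.21 without control replicate 2 and 1.00 without control replicate 1. Xrcc5 went the other way, at 3.14 and 3.39 RPKM in control cells against 2.23 and 2.90 RPKM with miR-125b, a log2 fold change of -0.26 ± 0.21 (SE, adjusted p = 0.692 in limma). Thus the 2 Ku genes had values of opposite sign, and neither passed the test.

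Xrcc4, the scaffold that binds the ligase Lig4, was at 3.41 and 2.82 RPKM in control cells against 4.68 and 3.71 RPKM with miR-125b. Prkdc, the catalytic subunit that joins Ku on DNA ends, was at 5.50 and 4.05 against 5.18 and 5.83 RPKM, and Lig4 at 2.42 and 1.46 against 2.37 and 2.36 RPKM. Only Xrcc4 of these 3 had groups that did not overlap. The pathway's median log2 fold change was 0.21, and without control replicate 2 it was below 0.01 in size. Without control replicate 1 it was 0.44.

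**Figure D2:**
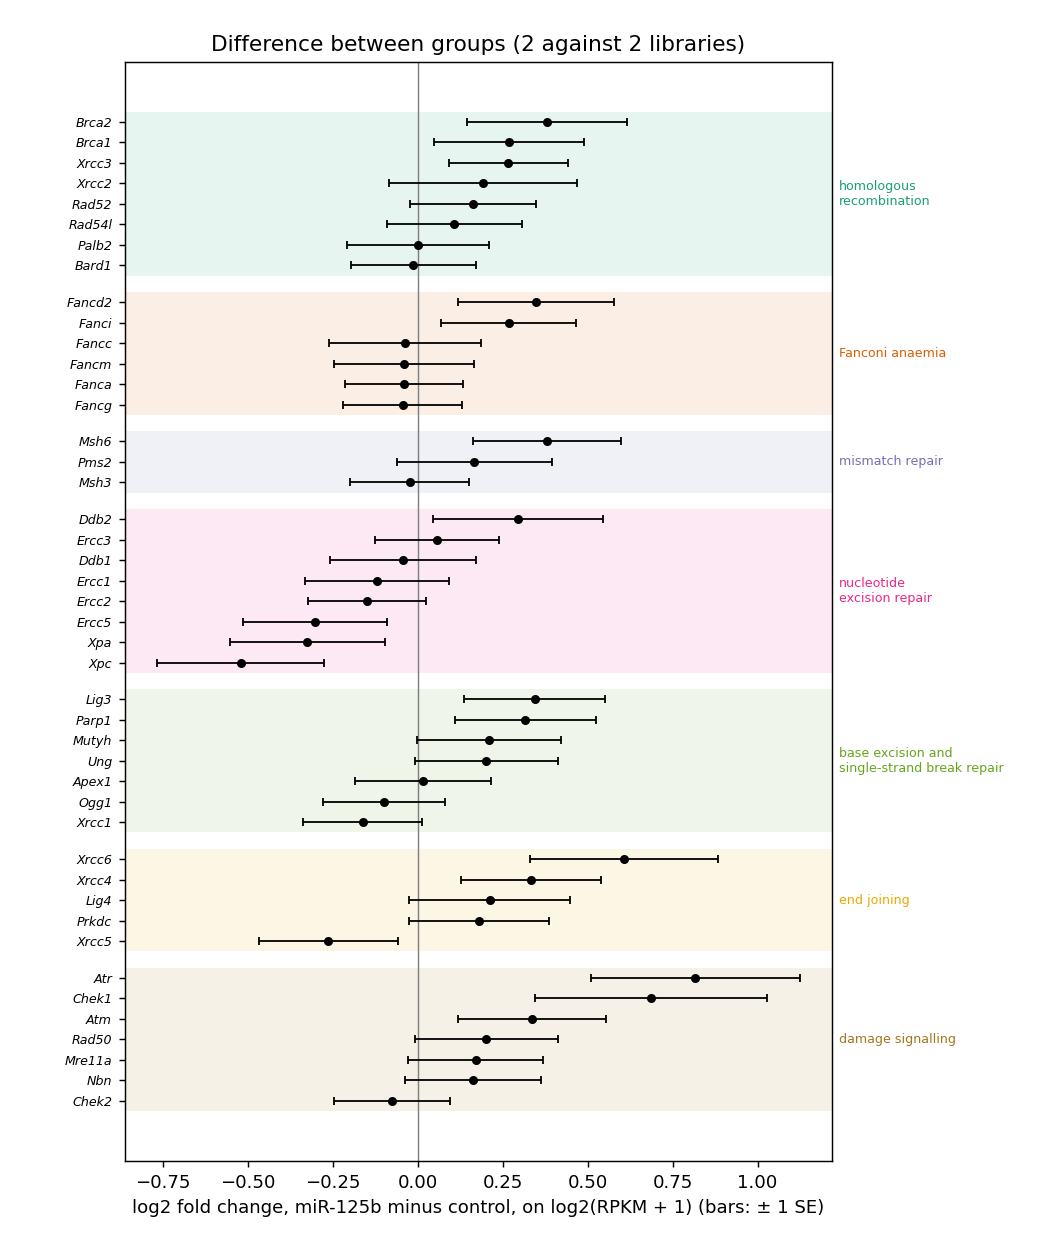
Log2 fold change (miR-125b minus control, log2(RPKM + 1)) of each gene with bars of 1 SE, grouped by pathway. Atr at 0.82 and Xpc at -0.52 mark the ends, and positive values prevail outside nucleotide excision repair and the Fanconi pathway.

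In homologous recombination 7 of 8 genes had a positive value and the median was 0.18. That median was -0.012 without control replicate 2 and 0.27 without control replicate 1. Brca2, which loads the recombinase onto single-stranded DNA, was at 5.79 and 3.60 RPKM in control cells against 5.92 and 6.64 RPKM with miR-125b. Its log2 fold change was 0.38 ± 0.24 (SE, adjusted p = 0.626 in limma). It was 0.10 without control replicate 2 and 0.66 without control replicate 1. Brca1 was at 19.2 and 13.4 RPKM in control cells against 20.4 and 18.7 RPKM with miR-125b, with overlapping groups. For both genes control replicate 2 was the low library.

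Xrcc3, a paralogue of the recombinase, differed from its neighbours in that the control libraries were alike. It was at 4.74 and 5.01 RPKM in control cells against 6.05 and 6.09 RPKM with miR-125b. Its log2 fold change of 0.27 ± 0.18 (SE, adjusted p = 0.642 in limma) was 0.30 without control replicate 2 and 0.23 without control replicate 1. Both miR-125b libraries were above both controls. Bard1, the partner of Brca1, and Palb2, the bridge between Brca1 and Brca2, had log2 fold changes of -0.013 and 0.00074. Those of Rad54l, a motor protein of strand exchange, of Rad52 and of Xrcc2 were 0.11, 0.16 and 0.19.

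The Fanconi pathway had a median of -0.039, whose sign depended on the setting. It was 0.081 without control replicate 1, 0.042 without miR-125b replicate 1, 0.11 with a mean of at least 5 RPKM and 0.085 with the row of highest mean RPKM. The genes of its pair of ubiquitinated clamp proteins had the highest log2 fold changes of the pathway, though not the highest levels. Fancd2 was at 5.50 and 3.53 RPKM in control cells against 6.22 and 5.60 RPKM with miR-125b, and Fanci at 6.83 and 5.17 against 7.02 and 7.73 RPKM. In both the groups did not overlap and control replicate 2 was lowest. Their log2 fold changes were 0.35 and 0.27, and 0.087 and 0.096 without that library. Without control replicate 1 they were 0.61 and 0.44. The core complex genes Fanca, Fancc and Fancg and the translocase gene Fancm had log2 fold changes between -0.044 and -0.037. Fancg, for example, was at 7.04 and 6.84 RPKM in control cells against 7.05 and 6.36 RPKM with miR-125b.

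Of the mismatch repair genes, Msh6 was at 46.1 and 35.9 RPKM in control cells against 48.3 and 58.7 RPKM with miR-125b (log2 fold change 0.38 ± 0.22, SE, adjusted p = 0.609 in limma). Msh3 was nearly the same in all libraries, at 5.58 and 5.42 against 5.42 and 5.36 RPKM. Pms2, the endonuclease subunit, was at 9.56 and 6.20 against 8.85 and 8.73 RPKM. The value of Msh6 did not pass the test, and it was 0.20 without control replicate 2 and 0.56 without control replicate 1. Leaving out miR-125b replicate 2 gave 0.24. The median of the 3 genes was 0.17. It was -0.041 without control replicate 2 and 0.44 without control replicate 1.

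Nucleotide excision repair was the pathway with the most negative median, -0.13, with 6 of 8 values below 0. Xpc, the sensor of helix distortion (chromosome 6, 91439302 to 91465882), was at 12.5 and 20.2 RPKM in control cells against 10.9 and 10.7 RPKM with miR-125b. The miR-125b libraries were alike and below both controls, and control replicate 2 was here the highest library. The log2 fold change was -0.52 ± 0.25 (SE, unadjusted p = 0.0745, adjusted p = 0.555 in limma). It was -0.20 without control replicate 2 and -0.85 without control replicate 1.

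Xpa, the damage verification protein, was at 14.2 and 20.5 RPKM in control cells against 12.3 and 14.6 RPKM with miR-125b, again with control replicate 2 highest. Its log2 fold change was -0.33. It was -0.075 without that library and -0.58 without control replicate 1. Ercc5, which encodes the nuclease that cuts 3′ of the lesion, was at 7.11 and 6.95 against 4.58 and 6.59 RPKM. Its controls were alike and miR-125b replicate 1 was low. The log2 fold changes of the helicase gene Ercc2 and the nuclease subunit gene Ercc1 were -0.15 and -0.12, and those of Ercc3, Ddb1 and the damage-binding gene Ddb2 were 0.057, -0.045 and 0.29. Without control replicate 2 the median of the 8 genes was -0.15. It was -0.041 without control replicate 1 and -0.044 with the values corrected for GC content. Exons of Acp2 on the opposite strand overlap 33.5% of the exon length of Ddb2, and those of Klc3 16.5% of that of Ercc2.

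Base excision and single-strand break repair had a median of 0.20 over 7 genes. Lig3 was at 12.5 and 9.01 RPKM in control cells against 14.3 and 13.3 RPKM with miR-125b, while its scaffold partner Xrcc1 was at 27.6 and 28.0 against 25.2 and 24.3 RPKM. The groups did not overlap in either gene, and the values had opposite signs, with log2 fold changes of 0.34 ± 0.21 and -0.16 ± 0.17 (SE; adjusted p = 0.620 and 0.760 in limma). Without control replicate 2 they were 0.13 and -0.15. Leaving out control replicate 1 gave 0.56 and -0.17. Parp1, which recruits them, was at 63.9 and 50.6 against 67.1 and 75.3 RPKM. Mutyh was at 1.95 and 1.83 against 2.65 and 2.06 RPKM. The uracil glycosylase gene Ung, Apex1 and the oxidised-guanine glycosylase gene Ogg1 had log2 fold changes of 0.20, 0.016 and -0.10. Without control replicate 2 the pathway's median was 0.030, and without control replicate 1 it was 0.24.

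Control replicate 2 was lower than control replicate 1 in 37 of the 44 genes (84.1%), against 51.5% of all tested genes, and the median difference between them was -0.33 on the log2(RPKM + 1) scale. It was the lowest of the 4 libraries in 28 genes (63.6%), against 37.0% of all tested genes. Compared with control replicate 1 alone, miR-125b replicate 1 was higher in 18 of the 44 genes and replicate 2 in 21, where the shares of all tested genes were 49.4% and 48.6%. Compared with control replicate 2, these counts were 33 and 31 (53.7% and 53.0% of all tested genes). These pairings share libraries and are given side by side. Without control replicate 2 the median log2 fold change of the 44 genes was -0.037, with 19 positive values in place of 28. Without control replicate 1 it was 0.27, with 33 positive values.

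**Figure D3:**
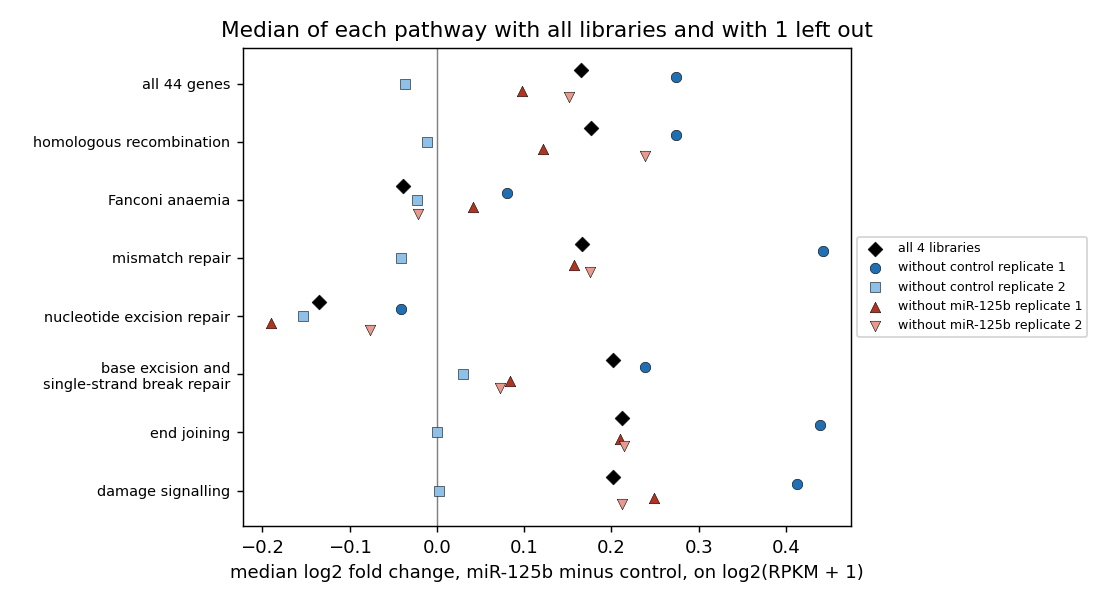
Median log2 fold change (miR-125b minus control) of all 44 genes and of each pathway, with all libraries (diamonds) and with 1 library left out. Without control replicate 2 the median of all 44 genes is -0.037, and without control replicate 1 it is 0.27.

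Other measures moved with that library. A list of 15 genes of proliferation, such as Mki67, Top2a and Mcm6, had a summed level of 819.3 RPKM in control replicate 2 against 1167, 1130 and 1224 RPKM in control replicate 1 and the miR-125b libraries, and all 15 were lower in control replicate 2 than in control replicate 1. Of these, 13 had a positive log2 fold change with miR-125b (86.7%, against 52.8% of all tested genes), and the median was 0.29. Compared with control replicate 1 alone, miR-125b replicate 1 was higher in 6 of the 15 (median difference -0.030) and replicate 2 in 10 (median 0.046). Genes of myeloid identity moved the other way. All but 1 of the 10 tested, Csf2rb, were higher in control replicate 2 than in control replicate 1, with a median difference of 0.65, and the summed level was 1790 RPKM in control replicate 2 against 961.8, 1559 and 1128 RPKM in control replicate 1 and the miR-125b libraries. Cebpa, a transcription factor gene of this lineage, was at 28.1 and 61.6 RPKM in control cells against 28.4 and 38.0 RPKM with miR-125b. Transcript GC content moved with it too. Across the 44 genes Spearman's rho of GC content with the difference between control replicates 2 and 1 was 0.49, and across 10280 tested genes 0.47. With the log2 fold change between groups, rho was -0.43 across the 44 and -0.28 across all. These are descriptions over genes of the same libraries. In the 22 genes of lower GC content the median log2 fold change was 0.19, and in the other 22 it was 0.036. Chek1 and Atr had the lowest GC content of the 44 (39.4% and 40.8%). With the values corrected for GC content the median of the 44 genes was 0.071. The part of proliferation, myeloid genes and GC content in the differences was not tested further.

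**Figure D4:**
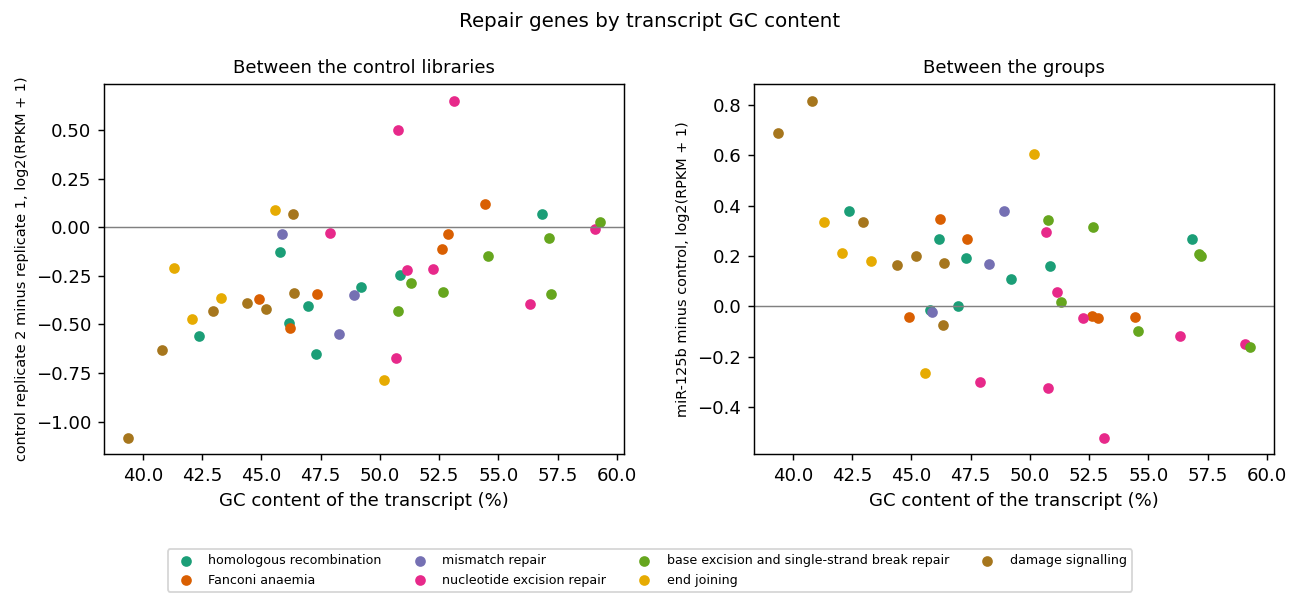
Transcript GC content of the 44 genes (x axis, %) against the difference between the control libraries (left) and between the groups (right), both on log2(RPKM + 1), coloured by pathway. Genes of low GC content tend to be lower in control replicate 2 (rho 0.49) and to have positive differences between groups (rho -0.43).

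For the 7 genes with a strong site for miR-125b (8mer or 7mer-m8), of which 5 sites are printed above, log2 fold changes with all libraries ran from -0.15 (Ercc2) to 0.29 (Ddb2) with a median of -0.037, against 0.18 for the others. Over all tested genes with a 3′ UTR the medians were -0.062 and 0.045. Of the 8mer genes, Bard1 was at 6.54 and 5.91 RPKM in control cells against 5.73 and 6.60 RPKM with miR-125b, and Fancc at 1.46 and 1.28 against 1.13 and 1.51 RPKM. Another Fancc transcript, with a different 3′ end and more reads, was at 2.22 and 2.65 against 2.96 and 2.97 RPKM. Which of these transcripts holds the site was not analysed. Ddb2, with a site in a short 3′ UTR of 345 bases, was at 12.8 and 7.66 against 12.8 and 12.1 RPKM. Without control replicate 2 all 7 values were negative, from -0.22 (Fancm) to -0.042 (Ddb2), with a median of -0.15 against 2.8e-06 for the others. Over all tested genes with a 3′ UTR these medians were -0.044 and 0.0039. Without control replicate 1, 2 of the 7 were negative and the median was 0.050. The sign of most of these genes therefore depended on which control library was used.

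A wider list of repair genes, which leaves out the 44, had 97 genes in the tables, of which 92 were tested. None passed after adjustment in limma or limma-voom, and at an unadjusted p under 0.05 there was 1 by limma (1.09%, against 9.38% of all tested genes) and 2 by limma-voom. Positive values numbered 57 and negative ones 35, and the median was 0.067. The gene by limma was Fen1, the flap endonuclease of replication and long-patch base excision, at 108.6 and 90.1 RPKM in control cells against 72.9 and 51.0 RPKM with miR-125b (log2 fold change -0.69 ± 0.24, SE, adjusted p = 0.488 in limma). Both miR-125b libraries were below both controls.

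Next by p were Dclre1c, which encodes the hairpin-opening nuclease Artemis, at 3.44 and 4.25 RPKM in control cells against 2.50 and 2.45 RPKM with miR-125b, and Rnf8, a ubiquitin ligase recruited to breaks, at 12.7 and 11.2 against 15.6 and 17.0 RPKM. In both the groups did not overlap. Log2 fold changes were 0.48 for the glycosylase gene Neil1, 0.77 for Tipin of the fork protection complex, 0.41 for Rad54b and 0.52 for Rad51l1, with adjusted p-values in limma between 0.558 and 0.581. In control replicate 2 Tipin was lowest, at 40.1 RPKM against 78.8 to 123.9 RPKM in the other libraries. Its value was 0.25 without that library and 1.28 without control replicate 1. The values of Neil1, Rad54b and Rad51l1 were 0.72, 0.26 and 0.32 without control replicate 2. Without control replicate 1 they were 0.24, 0.56 and 0.72.

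Promoters of 36 of the 44 genes were in the RefSeq table (GRCm38.p6), from 250 bases before to 50 after each start. They were searched on both strands for TTTGGCGC and TTTCCCGC, which are forms of the element bound by E2F factors, regulators of genes of dividing cells. Those of Xrcc2, Fancd2, Ercc3, Xpc, Ddb2, Prkdc, Rad50 and Nbn were not analysed here. A match was present in 7 of 36 genes (19.4%), 1 in each window, against 1.80% of all 27025 genes in that table. Of the wider list, 2 of 75 genes (2.67%) had a match. Among the 44, the 7 genes with a match were Brca2, Bard1, Fancg, Msh3, Msh6, Xrcc6 and Chek2. The windows of 4 are printed, picked after their log2 fold changes were seen. The match is in capitals, 5′ to 3′ on the gene's strand, and a match of the opposite strand reads GCGGGAAA.
Brca2: aggccacaGCGGGAAAcagacaca
Xrcc6: gggtggaaGCGGGAAAtgcgagtg
Chek2: gattagccGCGGGAAAccaagacg
Bard1: ccgctcagTTTCCCGCtcaggaag

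Of these 4, Brca2 and Xrcc6 had positive log2 fold changes of 0.38 and 0.61, while Chek2 and Bard1 were at -0.076 and -0.013. Brca2 and Xrcc6 were lowest in control replicate 2, and Chek2 was highest there. A match is a description of the sequence only.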

How the data were processed

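The authors deposited 1 table per library with an RPKM value for each of 26982 RefSeq transcripts. Per the submitters' processing notes the genome was mm9. For the aligner and counting program, the sources used here give no name. Multiplying the deposited RPKM by exon length gave whole reads, after division by a constant of each library, for 100% of transcripts (to within 0.001 reads). Over 1 row per gene the libraries held 8.42, 7.73, 9.48 and 8.82 M reads (control 1 and 2, miR-125b 1 and 2), and 3 reads in 1 kb were worth 0.238 to 0.289 RPKM. Such figures cover counting error only.

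Genes with at least 1 RPKM in at least 2 libraries were fitted with limma 3.58.1 (R 4.3.3) on log2(RPKM + 1), using a model of group alone with a trended prior, 2-sided tests and Benjamini-Hochberg adjustment over all 10310 genes at 0.05. The fit was also run on simulated counts, whose spread was not matched to these libraries, so that run does not measure its error rate here. Correlations used SciPy 1.17.1. GC content and 3′ UTRs came from GENCODE M21 by RefSeq accession or symbol (99.4% of genes). Its exon and stop codon positions set each 3′ UTR, and the gene positions printed here did not come from it. Values by library are given for the 3 genes of smallest p in each pathway, for kinases and complex partners fixed by name, for the 3 highest and 3 lowest genes, and for the genes with a site where a result turns on them. Of the wider list, the 8 genes of smallest p were taken, of which 1 is not reported here. The 44 genes, the pathways and the lists were chosen with earlier results of these data known. Alternatives covered the pseudocount, filter, scaling, limma-voom on recovered reads, the row per gene, each library left out, the replicate number as a block and a GC correction.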

Additional observations from a re-analysis of the deposited data

How the results depend on the processing

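Over 15 alternative settings 0 of the 44 genes had an adjusted p under 0.05. The sign of the log2 fold change held in every setting for 27 genes. The number of all genes called, 0, was 12 with the replicate number as a block and ran from 0 to 108 with single libraries left out (108 and 24 without miR-125b replicate 1 or 2, 1 without control replicate 2). At an unadjusted p under 0.05 all genes ran from 322 to 3018, the 44 genes from 0 to 16 (16 without control replicate 1) and the wider list from 0 to 29. The 44 genes gave 0 with no filter, and 3 with the replicate block, with or without GC correction. The wider list gave 2 with the replicate block, limma-voom, median-ratio scaling, quantile normalization or a pseudocount of 5, and 4 with no filter, GC correction or both block and GC correction. Same-numbered libraries deviated together with r = 0.021. With 2 libraries per group that value cannot tell whether they were prepared together, and the labels do not say. The block called none of the 44 genes.

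With libraries left out, medians ran from -0.037 to 0.27 for the 44 genes, -0.012 to 0.27 for homologous recombination, -0.19 to -0.041 for nucleotide excision repair, 2.8e-06 to 0.44 for end joining, 0.0020 to 0.41 for damage signalling and -0.025 to 0.21 for the wider list. With GC correction, alone or with the replicate block, nucleotide excision repair was at -0.044 and end joining at 0.076, and with a mean of at least 5 RPKM end joining was at 0.39. The sign turned in 17 genes when 1 library was left out, 11 of them without control replicate 2. Their ranges were -0.20 to 0.20 for Palb2, -0.10 to 0.075 for Bard1, -0.046 to 0.26 for Rad54l, -0.14 to 0.52 for Xrcc2, -0.10 to 0.017 for Fanca, -0.16 to 0.082 for Fancc, -0.11 to 0.020 for Fancg, -0.22 to 0.14 for Fancm, -0.11 to 0.44 for Pms2, -0.32 to 0.077 for Ercc1, -0.054 to 0.17 for Ercc3, -0.20 to 0.11 for Ddb1, -0.042 to 0.63 for Ddb2, -0.13 to 0.16 for Apex1, -0.025 to 0.45 for Lig4, -0.0096 to 0.41 for Rad50 and -0.033 to 0.36 for Nbn. Under other settings Palb2 turned to -0.073 (GC correction, alone or with the block), -0.0088 (limma-voom), -0.014 (median-ratio scaling) and -0.0028 (pseudocount 5), Apex1 to -0.0027 (median-ratio scaling) and Fancc to 0.21 (row of highest mean RPKM). The cause was not tested, except that a setting without a library has fewer samples. With 1 library left in a group, that library is assumed to vary like the other group.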

Other observations

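Of the 44 genes, 8 had more than 1 transcript row, and 2 of these differed in level between rows. Rows of 1 gene repeat the reads of shared exons. For Fancc, the transcript that ends at 63406017 on chromosome 13 (mm9, minus strand) had 52 and 42 reads in control cells against 45 and 56 with miR-125b, and the one that ends at 63412847 had 78 and 86 against 117 and 109. The second was thus higher in both miR-125b libraries than in both controls, at 2.22 and 2.65 RPKM against 2.96 and 2.97 RPKM, while the first overlapped. For Ercc1, the row with the longer exon length was at 6.03 and 4.35 RPKM in control cells against 4.98 and 4.33 RPKM with miR-125b, and the other row at 10.0 and 6.68 against 7.76 and 7.48 RPKM. The rows of Brca2, Fancg, Mutyh, Rad52, Rad54l and Ung were close to each other in each library. These rows were chosen after their values were seen, and no test was made.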
